A study of Mus musculus with 18 samples.

Results

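Lone shared peaks are H3K4me3 peaks of control mouse islets that stand far from any other peak of the same list and are found in Men1 knockout islets too. They were chosen as autosomal control peaks with a score of 300 or more that overlapped a knockout peak by at least 1 bp and had no other control peak within 250 kb on either side, measured from edge to edge. The rule found 389 such peaks, which is 1.78% of the 21905 control peaks and 2.52% of the 15409 shared autosomal peaks of that score. The other 15020 shared peaks of that score, each with a control neighbour within 250 kb, serve as the comparison. The members were thus chosen by control position and score and by overlap with the knockout list, and not by width or width ratio, although these come from the same peak calls. ChIP-seq, which sequences the DNA that an antibody pulls down together with its target, was applied to 18 samples from 6 conditions. The 2 H3K4me3 libraries used here came from pancreatic islets at 2 months of age, 1 from RIP-Cre control mice, whose rat insulin promoter drives Cre recombinase, and 1 from mice described as an islet-specific knockout of Men1. The strain background of both was a mixture of C57BL/6, FVB/N and 129s6. The labels do not say which Cre driver made the knockout or how many animals went into a library. Cells of an islet in which no Cre acts keep Men1, so that a knockout islet can hold both kinds of cell. No test was made, because each genotype is represented by 1 library, and what follows compares 2 libraries of unknown depth.

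H3K4me3 marks the start sites of active and poised genes. It is placed by SET1 and MLL family methyltransferase complexes, and menin, the protein encoded by Men1, is a subunit of the MLL1 and MLL2 complexes. Genes are unevenly spread over mammalian chromosomes. In gene deserts, long stretches with few or no genes, the start of a single gene is often the only H3K4me3 peak for a long way, and many such genes encode developmental regulators or proteins of neurons and cell adhesion. Gene positions on mm9, the build of the peak lists, were not used here, so that the peaks are given by position, the islet label could not be checked against the promoters of marker genes, and no genes are named.

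The surroundings of the peaks are described first. The distance to the nearest other control peak had a median of 379 kb (quartiles 298 and 561 kb, range 250.2 to 2464 kb), against a median of 18.6 kb for other shared peaks. The rule sets this contrast, since it puts distances above 250 kb among lone peaks and all others in the comparison. Counted over 1 Mb on either side, a lone shared peak had a median of 6 other control peaks and another shared peak 28, a difference to which the rule itself contributes. No other control peak lay within 1 Mb of 35 lone shared peaks. At the other end, 5 of the 389 had 28 or more control peaks within 1 Mb, so that they stood alone locally but not in a sparse region. The highest of these counts was 55, for a peak on chromosome 13 (24370702 to 24373564). The peak-free stretch that held a lone shared peak had a median length of 1.21 Mb. At 3 lone shared peaks one side had no further control peak before the end of the chromosome.

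Lone shared peaks were found on each of the 19 autosomes, with 8 on chromosome 19 and 39 on chromosome 1 as the extremes. As a share of the control peaks of a chromosome they made up the most on chromosome 6 (35 peaks, 3.32%) and the least on chromosome 11 (13 peaks, 0.768%). Of the 389, 143 had another lone shared peak as the next control peak, and 47 stood in 15 runs of 3 or 4. Neighbouring peaks share the gap between them, so the rule itself favours such runs. Whether there were more than that would give was not tested. Chromosome 6 held 5 of the 15 runs, with 17 peaks, among them both runs of 4.

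The peaks that stood alone and the other shared peaks had nearly the same median width. Their median control width was 2148 bp (quartiles 1649 and 2802 bp, 95% interval of the median 2029 to 2210 bp), against 2132 bp (quartiles 1630 and 2753 bp, interval 2117 to 2148 bp). The intervals treat peaks as independent and do not cover differences between libraries. In the control list the broadest 5% of peaks were 3881 bp or wider, and 7.20% of lone and 6.92% of other shared peaks reached that width. Together the lone shared peaks covered 920 kb. Their scores were lower. The median score was 2848 (quartiles 1078 and 3100), against 3100 for other shared peaks, and 46.0% of them reached the score of 3100 at which most strong peaks of the list are tied, against 57.8%. Scores are the authors' own values, as deposited per peak, and under 3100 a higher score marks a clearer enrichment. A few scores lie above the tied value, such as 3227 for a control peak on chromosome 5. Whether these mark a clearer enrichment than 3100 is not stated in the sources used here. Below 3100, the lone shared peaks had a median width of 1729 bp and the others 1562 bp, at median scores of 1191 and 1178. Across the 389 lone shared peaks, score and width rose together (Spearman's rho 0.70), as they did across the others (rho 0.70). Both values come from the same reads of 1 library.

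In the knockout list, 382 of the 389 were met by a single knockout peak that overlapped no other control peak, and these pairs allow a comparison of width. The knockout peak was narrower in 248 of 382 pairs (64.9%), wider in 131 (34.3%) and equal in 3. Over all 18299 one-to-one pairs of the lists the knockout peak was narrower in 73.8% and wider in 26.0%, and over the 14773 autosomal pairs with a control score of 300 or more, lone ones included, these shares were 75.6% and 24.2%. On the log2 scale, the median width ratio of knockout over control was -0.06 for lone shared peaks (interval -0.086 to -0.043, SD over pairs 0.25) and -0.11 for the 14391 other pairs (interval -0.115 to -0.108, SD 0.24). A median lone peak thus kept 95.6% of its control width in the knockout list and a median other peak 92.6%. In base pairs the median difference was -99.5 and -159 bp. The difference between the medians was small beside the spread over pairs in either set.

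**Figure D1:**
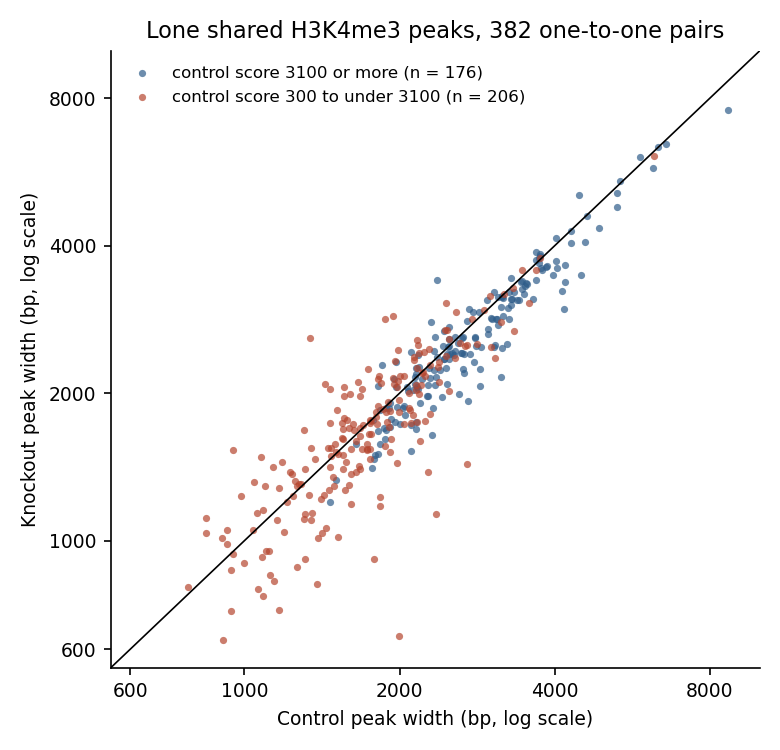
Width in the knockout list against width in the control list for the 382 lone shared peaks in one-to-one pairs, in bp on log scales, with the line of equal width. Pairs with a control score of 3100 or more lie mostly just under the line, and those with lower scores are scattered on both sides of it, with 248 of 382 pairs below the line in all.

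The shifts of the left and right border add up to the width difference of a pair, so that they restate it by side. At lone shared peaks the left border was shifted inwards by 44 bp (median) in the knockout list and the right border by 57.5 bp, against 73 and 76 bp at other shared peaks. Both borders were drawn in at 163 lone pairs (42.7%) and pushed out at 67 (17.5%). At other shared peaks these shares were 50.9% and 9.62%. Most lone peaks changed little: in 208 of 382 pairs (54.5%) the knockout width was within 10% of the control width, beside 53.2% of the other pairs.

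A change of 1.2-fold or more was used to single out pairs that differed clearly. Among lone pairs 64 (16.8%) were narrower by that much in the knockout list and 26 (6.81%) were wider. In all one-to-one pairs the shares were 23.8% and 4.50%, and in autosomal pairs of control score 300 or more they were 20.7% and 2.13%. The 26 wider pairs lay on 15 chromosomes, had a median control score of 770 and a median knockout score of 1535, and in 21 of them the knockout score was the higher. The 64 narrower pairs had median scores of 2635 and 1800, and the knockout score was higher in 0 of them and lower in 46. A control score of 3100 or more was held by 27 of the narrower and 3 of the wider pairs. Among all 176 lone pairs of that score, the knockout score was higher in 2 and tied in 141, so that ties limit these counts. Width and score come from the same reads and are not independent measurements.

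When peaks were classed by control score, the difference between lone and other peaks lay in those of middle and low score. Classed by knockout score, as given below, the lone median was the lower one in the classes under 600. At a control score of 3100 or more, the median log2 ratio was -0.09 for 176 lone pairs and -0.10 for 8314 other pairs. At scores from 1200 to under 3100 it was -0.04 (100 pairs) and -0.13 (2991 pairs). At scores from 600 to under 1200 it was 0.01 (56 pairs, interval -0.11 to 0.08) and -0.15 (1501 pairs, interval -0.17 to -0.14). At scores from 300 to under 600 it was 0.02 (50 pairs, interval -0.21 to 0.12) and -0.19 (1585 pairs, interval -0.21 to -0.17). Lone peaks of low control score were therefore about as often wider as narrower in the knockout list. Below a control score of 1200, the knockout peak was wider in 55 and narrower in 51 of 106 lone pairs, against 784 and 2296 of 3086 other pairs. Their spread was large, with an SD of 0.37 over lone and 0.35 over other pairs.

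The scores of the knockout partners followed the same order. In the class from 600 to under 1200, the median partner scored 1032 where the control peak stood alone and 608 where it did not. At 1200 to under 3100 the partner medians were 2429 and 1547, and at 300 to under 600 they were 534 and 309. Below 3100 the knockout score was higher than the control score in 117 of 206 lone pairs (56.8%) and in 1233 of 6077 other pairs (20.3%). Both sets were chosen and cut by control score. With control scores of 3100 or more included, where most pairs were tied, the knockout score was higher in 31.2% of lone and 10.4% of other pairs. It was lower in 31.9% and 46.4%. Over all one-to-one pairs of the lists, ties at 3100 included, it was higher in 17.0% and lower in 47.9%. Scores of both lists depend on the unknown depths, whose part in this difference was not tested.

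**Figure D2:**
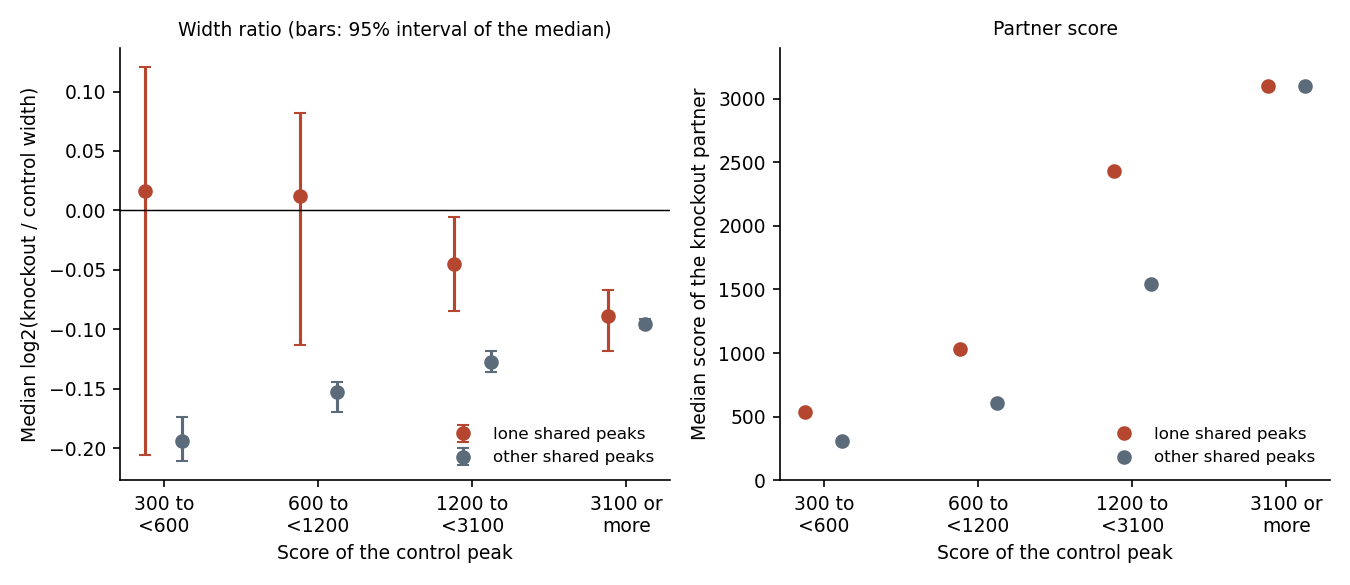
Left, median log2 width ratio (knockout over control) by score of the control peak, with 95% intervals of the median, for lone and other shared peaks. Right, median score of the knockout partner in the same classes. Lone peaks stand above the others in each class under 3100 (0.02 against -0.19 in the lowest class) and close to them at 3100 or more, where both partner medians are at the tied score.

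When the score classes were drawn on the knockout list, lone pairs had the higher median in 3 of 5 classes and the lower in 2. With knockout scores under 300 the median log2 ratio was -0.46 for 19 lone pairs and -0.40 for 985 other pairs. From 300 to under 600 it was -0.20 (30 pairs) and -0.18 (1264 pairs). From 600 to under 1200 the medians were 0.02 (31 pairs) and -0.13 (1599 pairs), from 1200 to under 3100 they were -0.04 (127 pairs) and -0.11 (3970 pairs), and at 3100 or more they were -0.06 (175 pairs) and -0.09 (6573 pairs). Choosing the members themselves in the knockout list, as knockout peaks of score 300 or more with no knockout neighbour within 250 kb, gave 395 shared peaks. Their log2 width ratio, knockout over control, had a median of -0.06 (392 pairs), against -0.10 for other shared knockout peaks (13741 pairs).

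The limit of 250 kb did not mark a step. Among shared peaks of score 300 or more, the median log2 ratio was -0.11 or -0.12 in each class of distance up to 150 kb. It was -0.07 from 150 to 200 kb and -0.10 from 200 to 250 kb, both outside the rule. Inside the rule it was -0.07 from 250 to 300 kb, -0.09 from 300 to 500 kb, -0.06 from 500 to 1000 kb and -0.01 beyond 1000 kb (34 pairs, interval -0.11 to 0.12). For control scores under 1200 the median was -0.13 from 100 to 150 kb and 0.03 from 150 to 200 kb. Across the 382 lone pairs distance and ratio were nearly unrelated (Spearman's rho 0.08).

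**Figure D3:**
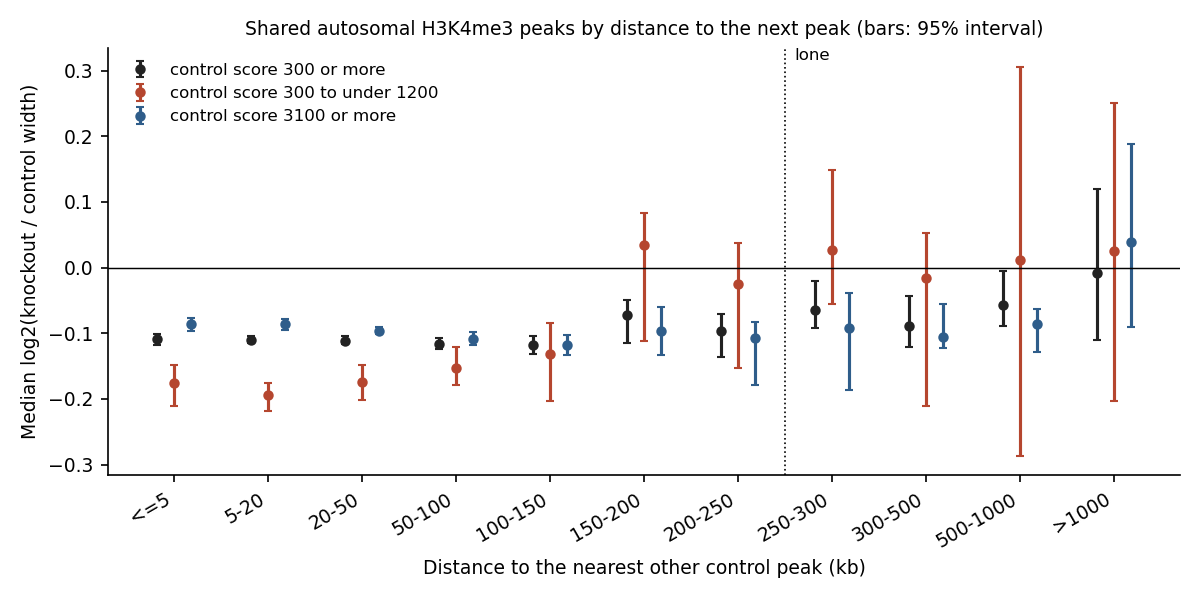
Median log2 width ratio (knockout over control) by distance to the nearest other control peak in kb, with 95% intervals of the median, for shared autosomal peaks in 3 ranges of control score. The dotted line marks 250 kb, beyond which peaks count as lone. For scores of 300 to under 1200 the medians lie under 0 up to 150 kb and near 0 from there on, and for scores of 3100 or more they stay near -0.1 up to 1000 kb.

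Lone shared peaks had a higher median ratio than the other shared peaks of their chromosome on 17 of 19 autosomes. The exceptions were chromosome 9, with -0.17 over 18 lone pairs against -0.12, and chromosome 15, with -0.12 over 26 lone pairs against -0.10. Chromosome 19 was the autosome on which the lone median lay above 0, at 0.04 over 8 pairs. Peaks on different chromosomes share the 2 libraries, so that these are not independent replicates.

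**Figure D4:**
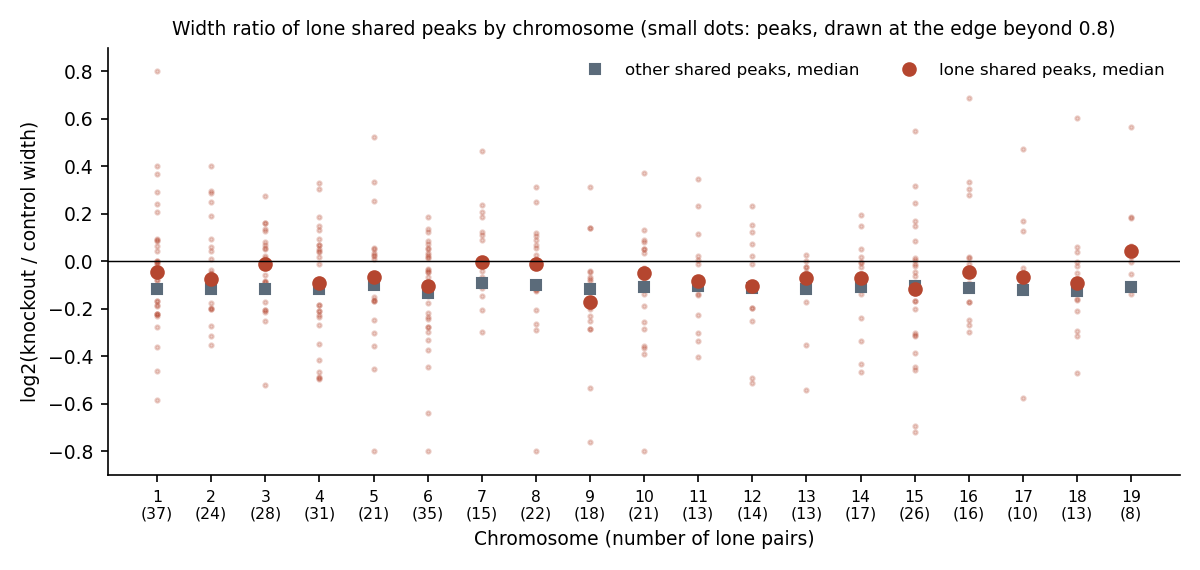
Log2 ratio of knockout over control width for each autosome, with the number of lone pairs in brackets. Large circles are medians of lone shared peaks, squares are medians of other shared peaks and small dots are single lone peaks. The circle lies above the square on 17 of 19 autosomes, with chromosomes 9 and 15 as the exceptions.

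Wide lone peaks and other wide peaks had nearly the same median ratio. In the widest class, from 2755 bp in the control list, it was -0.09 on the log2 scale over 96 lone pairs, of which 77.1% were narrower, and -0.10 over 3399 other pairs, of which 79.7% were narrower. The widest in a one-to-one pair was on chromosome 2 (143369984 to 143378662), where it measured 8679 bp in the control and 7558 bp in the knockout list, a log2 ratio of -0.20. The next, on chromosome 10 (125810459 to 125817035), measured 6577 and 6445 bp. The domain on chromosome 3 (45179568 to 45185924) measured 6357 and 6368 bp. The chromosome 3 peak lay 1065 kb from any other control peak. A second domain on chromosome 3 (60805061 to 60811272) went from 6212 to 5766 bp. Those on chromosome 5 (58105576 to 58111427), chromosome 14 (12384257 to 12389613) and chromosome 16 (52449958 to 52455251) had log2 ratios of 0.05, 0.02 and -0.05. Apart from the first, the ratios of the 8 widest in such pairs ranged from -0.11 to 0.05. Split peaks, among them the widest lone peak of all, are described with the other split peaks.

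One of the 8 had a low control score for its width. The peak on chromosome 17 (39979788 to 39986026) was 6239 bp wide with a control score of 755.6, and its 6110 bp knockout partner scored 3100. Among the 107 lone shared peaks with a score under 1200 the next widest was 3009 bp. Among all 3322 shared autosomal peaks with a score of 300 to under 1200, 1 was as wide, which is this peak itself. It was not checked against lists of artefact regions of mm9, so whether its width and scores reflect an H3K4me3 domain was not tested.

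In the narrowest class, up to 1629 bp in the control list, the median log2 ratio was 0.01 over 94 lone pairs and -0.13 over 3678 other pairs. All but 1 of the 6 narrowest lone peaks were wider in the knockout list. They were picked by control width, which is also the denominator of the ratio. The narrowest of all was a 776 bp peak on chromosome 10 (38273539 to 38274314), which had 805 bp in the knockout list. Peaks of 843 bp on chromosome 2 (10747279 to 10748121) and chromosome 1 (114312909 to 114313751) had knockout widths of 1036 and 1113 bp. A 906 bp peak on chromosome 3 (136819079 to 136819984) had 1013 bp in the knockout list. A 925 bp peak on chromosome 6 (98055328 to 98056252) had 1052 bp. A 908 bp peak on chromosome 9 (113350742 to 113351649) was the one of the 6 that was narrower, with 628 bp.

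The 8 lowest width ratios belonged to peaks with control scores from 357.1 to 1871, whose partners scored lower. On chromosome 10 (25426660 to 25428650) the control peak had 1991 bp (score 908.1) and its partner 640 bp (score 61.3), a log2 ratio of -1.64. On chromosome 5 (49279483 to 49281838) the widths were 2356 and 1134 bp, and the scores 1871 and 564.3. These 2 were the only lone pairs whose width was at least halved, and 0 were doubled. On chromosome 8 (50550412 to 50552199) a width of 1788 bp became 919 bp and a score of 520.5 became 82.1. On chromosome 6 (15134754 to 15137452) the widths were 2699 and 1433 bp and the scores 840.0 and 342.9. The next were on chromosome 9 (68081839 to 68083220), on chromosome 15 (72376480 to 72378754 and 39490630 to 39491797) and on chromosome 6 (139535033 to 139536864), with log2 ratios between -0.76 and -0.64. In each of these 8 pairs the knockout score was the lower.

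The 8 highest width ratios belonged to peaks with control scores from 373.7 to 3227. On chromosome 1 (175296730 to 175298071) the control peak had 1342 bp (score 373.7) and its partner 2590 bp (score 2308), a log2 ratio of 0.95. Most of the added length was on the left, where the border lay 844 bp further out. This peak also had 3 further knockout peaks within 250 kb, the highest number at any lone peak. On chromosome 16 (41532836 to 41533787) the widths were 952 and 1534 bp and the scores 416.6 and 1456. On chromosome 18 (86880015 to 86881884) they were 1870 and 2840 bp, with scores of 906.2 and 1939. On chromosome 19 (52338829 to 52340769) a peak of 1941 bp became 2870 bp, and its score went from 2475 to 3124. The peaks on chromosome 15 (42507325 to 42508755), chromosome 17 (68046125 to 68047589) and chromosome 7 (78556213 to 78557287) had ratios of 0.55, 0.47 and 0.47. On chromosome 5 (84844682 to 84847045) a control peak of 2364 bp already scored 3227, and its 3400 bp partner scored 3100, at a log2 ratio of 0.52. As 3100 is the tied score, the step from 3227 to 3100 was not read as a loss. The pair on chromosome 17 had the lower score in the knockout list, and the other 6 had the higher.

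At the most isolated peaks in one-to-one pairs the width ratio lay on both sides of 0. Among such pairs, the 8 with the greatest distance to another control peak lay 1622 to 2464 kb from it. Their log2 ratios ranged from -0.30 to 0.17, with 5 narrower and 3 wider in the knockout list. A split peak on chromosome 14, at a distance of 1850 kb, has no such ratio and is described below. The farthest was a 4308 bp peak on chromosome 4 (28739193 to 28743500), which had 4048 bp in the knockout list and a score of 3100 in both. Next came chromosome 12 (62623319 to 62625788), with 2470 and 2692 bp at a distance of 2027 kb. Its score was 2065 in the control list and 3100 in the other. Peaks on chromosome 15 (48620884 to 48622690 and 22965221 to 22966869) had ratios of -0.06 and -0.04. The third of that chromosome (18748009 to 18749234) widened from 1226 to 1380 bp. The lowest of the 8 was on chromosome 7 (11079582 to 11081180), with 1599 and 1301 bp at scores of 2077 and 2046. The remaining peaks, on chromosome 4 (17779581 to 17781518) and chromosome 2 (42507792 to 42509218), had ratios of 0.15 and -0.20. In 6 of these 8 pairs the knockout score was the higher.

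Within runs of lone peaks neighbours did not always move together. On chromosome 4 a run of 3 ended at the farthest peak named above. Its other members (25206780 to 25209646 and 26272518 to 26274828) fell from 2867 to 2073 bp and from 2311 to 1643 bp, log2 ratios of -0.47 and -0.49, with all scores at 3100 in both lists. On chromosome 19 a run of 3 held the widened peak described above (0.56). A 1817 bp peak in it (50752020 to 50753836) had 2064 bp in the knockout list (0.18), and a 3185 bp peak (48278307 to 48281491) had 3182 bp. The longer runs on chromosome 6 had medians of -0.08 and -0.19 over 4 peaks each. On chromosome 10 a run of 3 with a median of -0.14 held the most narrowed of all lone peaks. The runs on chromosomes 4, 10 and 19 were chosen after their values were seen.

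Few lone peaks were split. Of the 389, 7 (1.80%) overlapped 2 or more knockout peaks, against 3.23% of other shared peaks of score 300 or more and 2.95% of all shared control peaks. The low share was not particular to lone peaks. Other shared peaks with the nearest control peak at 150 to 200 kb were split in 1.55%, and those at 200 to 250 kb in 1.35%. Within 5 kb the share was 5.36%. The widest of all lone shared peaks was among the 7 that were split. It was 8770 bp wide on chromosome 1 (6719080 to 6727849) and was met by knockout peaks of 3615 and 2695 bp, 6310 bp in all. A 6753 bp peak on chromosome 14 (84842054 to 84848806), 1850 kb from any other control peak, was met by 3 knockout peaks of 2436, 2556 and 1072 bp. On chromosome 8 (130880376 to 130885845) a peak of 5470 bp was met by 3890 and 856 bp. The other 4 were on chromosome 3 (159502066 to 159506105 and 13471046 to 13473530), chromosome 1 (69151725 to 69155454) and chromosome 4 (36896956 to 36899379). There the knockout peaks summed to 4398, 2653, 3706 and 3148 bp, against control widths of 4040, 2485, 3730 and 2424 bp. In 5 of the 7, a knockout piece scored under 300.

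The neighbourhood was nearly as empty in the knockout list. No knockout peak other than the partner lay within 250 kb of 308 of the 389 lone peaks, while 81 (20.8%) had at least 1. Knockout peaks near lone peaks numbered 92, and 0 of them overlapped a control peak, which follows from the rule. They were weak and narrow (medians, score 91.9 and 674.5 bp), and 55 scored under 100. The medians over all 1867 knockout-only peaks of the list were a score of 85.04 and a width of 665 bp. The 2 highest scored 311.0 on chromosome 9 (24500055 to 24501021) and 304.6 on chromosome 17 (14416069 to 14417919). The reverse count was close: of the 395 shared peaks that stood alone in the knockout list, 73 (18.5%) had another control peak within 250 kb. Lone pairs with a knockout neighbour had a median log2 ratio of -0.03 (80 pairs), and those without had -0.08 (302 pairs).

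The rule kept shared peaks, and it left few out. Of the 394 autosomal control peaks of score 300 or more that stood alone, 389 (98.7%, exact 95% interval 97.1 to 99.6) overlapped a knockout peak, against 15020 of 15177 (99.0%, interval 98.8 to 99.1) of those with a neighbour. The 5 left out were on chromosome 1 (160884277 to 160889268, score 1135, and 109486118 to 109487543, score 349.5), chromosome 14 (44502786 to 44503791, score 557.2), chromosome 13 (118746913 to 118748282, score 533.7) and chromosome 18 (22110926 to 22113281, score 419.7). The first was 4992 bp wide and the other 4 between 1006 and 2356 bp.

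The members nearest the limits of the rule are given once. Just inside the distance limit, at 250.2 to 250.6 kb, were peaks on chromosome 4 (12833454 to 12834960 and 6914887 to 6919054) and chromosome 7 (120909116 to 120910726). Their log2 ratios were -0.18, -0.49 and -0.07. Just outside, at 249.5 to 249.8 kb, were peaks on chromosome 13 (29301782 to 29303127), chromosome 9 (111592230 to 111593325) and chromosome 16 (85549317 to 85550822), with ratios of -0.15, 0.19 and -0.58. Just inside the score limit were scores of 307.9, 314.8 and 319.9, with ratios of 0.16, -0.20 and 0.31. Just outside it were scores of 297.3, 291.8 and 289.1, with ratios of -0.79, -0.08 and -0.62.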

How the data were processed

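H3K4me3 peak lists of 2 of the 18 samples were used, and the other samples were not analysed here. Bowtie, MACS 1.4.2 and the build mm9 are named in the submitters' processing notes. Peak filters, pooling of animals and the role of the input in peak calling are not stated in the sources used here. A deposited list holds a chromosome, start, end and score per peak, with no header, so depth is unknown. The deposited score is the authors' value. MACS 1.4.2 writes minus 10 times log10 of a p-value, though no scale is stated in the lists. The other deposited values used, start and end, gave the widths. Lists were matched to samples by genotype, age and mark. The names also carry "2nd" and "swig_model_p6", which the labels do not explain, and 0 per-sample columns were left unused.

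Distances ran from edge to edge over the whole control list. Widths were compared as log2 of knockout over control width in one-to-one pairs, in which a control and a knockout peak overlapped each other and no further peak. Medians carry order-statistic 95% intervals and shares exact (Clopper-Pearson) ones. Positions are counted from 1. Members and lists were chosen with earlier results of these data known. The rule for named regions took, among lone pairs, the 8 widest, the 6 narrowest, the 8 lowest and 8 highest ratios and the 8 farthest. It added split members (up to 10), the 3 nearest each limit and unshared lone peaks (up to 8). The functions (Python 3.11.15, pandas 2.3.3, scipy 1.17.1) were tested on simulated data, and bedtools 2.31.1 also counted 389 members. Genes, fixed gene lists and cell type markers were not analysed here, since the gene table describes another build (GRCm38).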

Additional observations from a re-analysis of the deposited data

How the results depend on the processing

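Of 74 values recomputed under 13 alternatives (3 added after seeing the data), 48 stayed close to the value reported and 26 moved. Close means inside the 95% interval, or within 1.5 times for a count. None changed sign, and under each of the 13 the median log2 ratio of lone peaks was higher than that of other peaks. With a distance of 100 kb there were 1484 lone shared peaks, with a median log2 ratio of -0.097 and 71.6% narrower. With 500 kb there were 116. With a score of 100 or more the median control width was 1911 bp, 94.5% of lone peaks were shared, and the other peaks had a ratio of -0.116. With a score of 1000 or more these were 2352 bp, 99.7% and -0.102, and 70.1% of lone pairs were narrower. At the tied score of 3100 or more there were 179 lone shared peaks of 2666 bp median width, the ratios were -0.089 and -0.095, 75.6% were narrower and 100% of lone peaks were shared. Counting only neighbours of score 300 or more gave 694 lone shared peaks. The alternatives added after seeing the data were 3. Choosing in the knockout list gave 96.1% shared and -0.098 for other peaks. A score of 300 or more in both lists gave -0.101 for other peaks. Control scores of 300 to under 3100 gave 210 lone shared peaks of 1729 bp, ratios of -0.025 and -0.146, and 55.8% narrower. Counts moved because these settings admit more or fewer peaks. For the other moves the cause was not tested. Start-site distances were not run. No paired analysis was possible because there is 1 library of each genotype, and no library could be left out. The unknown depth limits what an absent peak means.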

Other observations

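Peaks that stood alone but lay outside the rule are given here as values. On the X chromosome, 44 control peaks of score 300 or more had no control neighbour within 250 kb, and all 44 overlapped a knockout peak. Their median width was 2140.5 bp. Their log2 width ratio (knockout over control) had a median of -0.04 over 41 one-to-one pairs (interval -0.15 to 0.03), and 25 were narrower (61.0%). The X peaks with a neighbour had a median of -0.15 (interval -0.17 to -0.13, 436 pairs), and 356 were narrower (81.7%). The difference between the sets was not tested.

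Weak autosomal peaks, with a control score under 300, were more often shared where they stood alone. Of 194 such lone peaks, 136 (70.1%, interval 63.1 to 76.5) overlapped a knockout peak, against 2972 of 5450 (54.5%, interval 53.2 to 55.9) with a neighbour. Their median scores were 112.2 and 120.0 and their median widths 830.5 and 858.5 bp. Where they were paired, the median log2 ratio was 0.02 (136 pairs) for lone and -0.16 (2807 pairs) for other weak peaks. The knockout partners of these had median scores of 203.8 and 131.7. Neither list gives a second library of its genotype, so that how far such values differ between libraries of 1 genotype is not known.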
